A study of Ovis aries with 7 samples.

Results

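Heat shock proteins and their DNAJ partners were followed in nuclei of the sheep striatum, across cell classes and between OVT73 and control sheep. The members were the features whose symbol began with HSPA, HSPB, HSPD, HSPE, HSPH or HSP90 followed by a digit or the letter A, or with DNAJA, DNAJB or DNAJC and a digit. HSPBAP1 and HSPBP1 were left out because they are binding partners and not chaperones of these families. The rule took 62 of the 26479 features and used no measured value. There were 13 HSP70 and HSP110 genes (HSPA and HSPH), 8 genes with the small heat shock protein symbol HSPB, HSP90AB1, and 3 DNAJA, 11 DNAJB and 26 DNAJC genes. DNAJB8 had no unique molecular identifier (UMI, a count of 1 captured transcript) in any nucleus kept, so 61 members gave values.

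These proteins keep other proteins folded. HSP70 proteins bind exposed stretches of a chain in a cycle driven by ATP. DNAJ proteins (HSP40) bring them their clients and speed up the ATP step through the J domain, and HSP110 proteins exchange the nucleotide so that the client is let go. HSP90 acts later on nearly folded clients, while small heat shock proteins hold unfolded chains without using ATP. Separate members do this work in the cytosol, the mitochondrion and the endoplasmic reticulum (ER), and some serve a single machine such as the clathrin coat. Heat shock factor 1 raises an inducible group of them under stress. In Huntington's disease the expanded polyglutamine stretch of huntingtin forms aggregates in striatal neurons, and several of these chaperones slow the aggregation of polyglutamine proteins in model systems.

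Striatal tissue came from 12 sheep aged 5 years. The 6 OVT73 sheep carried a complementary DNA of full-length human huntingtin (HTT) with an expanded CAG repeat, driven by a stretch of the human HTT upstream sequence, and the 6 control sheep did not carry it. OVT73 is a single transgenic line, described in the study as having a moderately expressed transgene and no striatal cell loss. Nuclei were sequenced in 3 OVT73 libraries, each a pool of 2 sheep, and in 4 control libraries, of which replicates 1 and 2 held 1 sheep each and replicates 3 and 4 held 2. Replicate numbers follow the order of deposition and pair no samples. Nuclei of sheep pooled in a library were kept together, which makes the library the replicate (n = 3 and 4 throughout).

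The libraries held 20887378 to 70473426 UMIs. After filtering, 32599 nuclei were kept, 17439 from OVT73 and 15160 from control libraries, with a median of 1862.5 to 2561 UMIs per nucleus. A separate feature with the identifier HTT had 0.973 to 4.85 UMIs per 1000000 UMIs (CPM) in OVT73 and 0.0441 to 0.217 CPM in control libraries, which fits the labels. Between 2 and 20 barcodes were shared by any pair of libraries. The median share of mitochondrial UMIs was 0.511% to 1.93% in the libraries.

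Clusters of nuclei were named from marker genes as D1 and D2 medium spiny neurons (MSNs, the output neurons of the striatum; 2590 and 2067 nuclei), eccentric MSNs (313), PV/Th interneurons (692), SST/NPY interneurons (107), cholinergic interneurons (60), neuroblasts (1303), oligodendrocytes (15127), oligodendrocyte precursor cells (OPCs, 2912), astrocytes (1022), microglia (2779) and endothelial cells (52). All these names mean "-like" and rest on transcripts alone. A cluster of 1075 nuclei with astrocyte markers led by DTHD1, GLIS3 and GFAP is called DTHD1-led glia. A further 2500 nuclei in 12 clusters stayed unnamed. The 10 classes with at least 10 nuclei in every library were compared. MSNs were far deeper (median 22490 UMIs in D1 MSNs) than oligodendrocytes (1770) or microglia (1416), so levels below are in CPM, the UMIs of a gene scaled to the total UMIs of the class in a library, with the mean ± SD over 7 libraries. The highest, next and lowest classes named below are those among the 10 classes compared, unless another class is named. Levels of different genes cannot be compared with each other, since gene lengths were not used.

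Some familiar members are not in the rule's list because the annotation gives them no such symbol. HSPD1, HSPE1, HSP90AA1, DNAJA1, DNAJB6 and HSPA12A were not found by symbol, so that 24 of 30 members picked for description had values. HSP90AB1 therefore stands alone for HSP90 here. HSPCA and HSP10, older symbols of HSP90AA1 and HSPE1, and HSP90B1, the HSP90 of the ER, were in the files but are not taken by the rule. HSPA1A and HSPA1L overlap in a reference annotation of another sheep assembly, and 15 of the 59 members matched there overlap another protein-coding gene. HSPA8, HSPB7, DNAJC2, DNAJC9, DNAJC13 and DNAJC16, described below, are also among these 15. Counts of such members may include reads of the neighbour.

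Through DNAJC6, the members took a larger share of the transcripts in oligodendrocytes than in neurons. They made up 0.366% to 0.406% of UMIs in OVT73 and 0.373% to 0.408% in control oligodendrocytes. In D1 MSNs the shares were 0.198% to 0.224% and 0.224% to 0.237%, and in microglia 0.223% to 0.265% and 0.220% to 0.277%. DNAJC6 alone gave 64463 UMIs in oligodendrocytes, more than all other members there together, and the next member, DNAJC13, gave 3803. The larger share in oligodendrocytes thus rests on DNAJC6 and is not a trait of the members as a set. The differences between classes are descriptions, since the classes were drawn from the same nuclei, although the members were left out of the genes that defined the clusters.

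**Figure D1:**
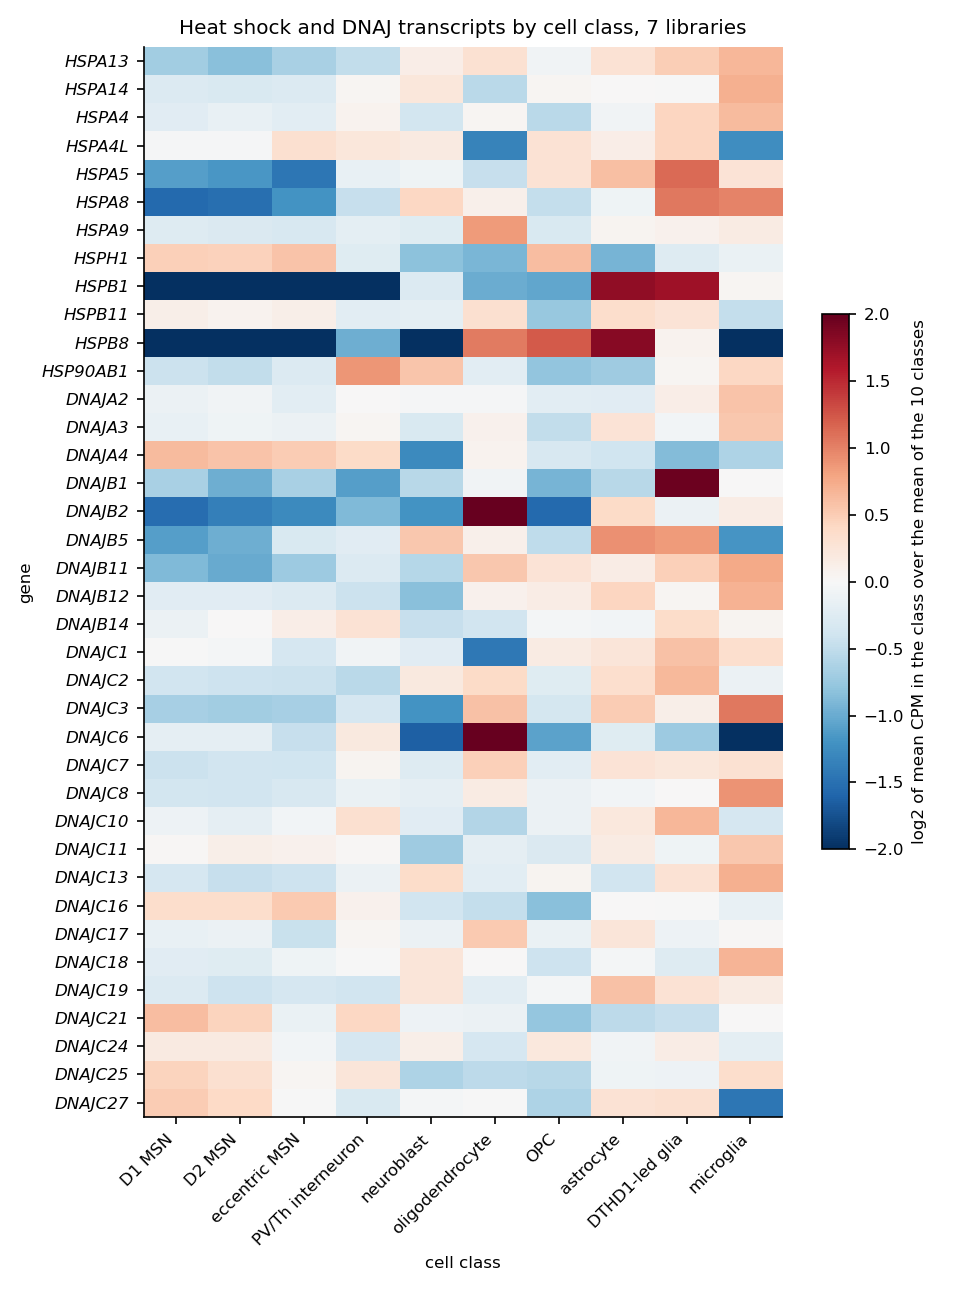
Level of the 38 members with at least 100 UMIs in their highest class, in 10 cell classes, as the log2 of the mean CPM over 7 libraries relative to the mean of the 10 classes for that gene. Rows are genes by family, columns are classes, and colours saturate at -2 and 2. DNAJC6 and DNAJB2 are darkest in oligodendrocytes, HSPB1 and HSPB8 in astrocytes, and D1 and D2 MSNs have like colours.

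Among the members that serve the clathrin coat, synaptic vesicles and endosomes, DNAJC6 showed the strongest class pattern. DNAJC6 is auxilin, which recruits HSPA8 to strip the clathrin coat from vesicles. Its level was 1994 ± 125 CPM in oligodendrocytes, with the 7 libraries between 1794 and 2180 CPM. The next of the 10 classes was PV/Th interneurons at 566 ± 72.3 CPM, followed by D2 MSNs at 440 ± 32.3 CPM and D1 MSNs at 437 ± 40.8 CPM. No library of the other 9 classes reached the lowest oligodendrocyte library. Of the small classes, pooled levels were 643 CPM in cholinergic and 600 CPM in SST/NPY interneurons. OPCs, from which oligodendrocytes arise, stood at 237 ± 12.6 CPM.

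A DNAJC6 UMI was found in 90.7% of oligodendrocyte nuclei and in 2.91% of microglial nuclei, which had a similar depth. Microglia held the lowest level, 46.9 ± 51.0 CPM, and it was uneven over the libraries. It was 50.5, 21.4 and 12.04 CPM in OVT73 replicates 1 to 3 and 11.1, 41.2, 158 and 34.7 CPM in control replicates 1 to 4. Control replicate 3 was the highest by far, and in the same microglial nuclei the 21 measured oligodendrocyte markers summed to 3565 CPM, against 523 to 1118 CPM in the other 6 libraries. The part of free or mixed oligodendrocyte RNA in the microglial DNAJC6 value was not tested.

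HSPA8, the constitutive HSP70 of the cytosol that works with DNAJC6, had a different distribution. Among the 10 classes it was highest in DTHD1-led glia at 228 ± 105 CPM and in microglia at 220 ± 44.2 CPM, and lowest in D1 and D2 MSNs at 37.5 ± 11.7 and 38.7 ± 14.2 CPM. The ranges of microglia (170 to 266 CPM) and D1 MSNs (21.8 to 56.1 CPM) did not overlap. Within neurons HSPA8 was higher in PV/Th interneurons (80.1 ± 24.7 CPM) than in D1 and D2 MSNs, with ranges that overlapped. DNAJC13, which acts with HSPA8 on endosomes, was highest in microglia at 224 ± 16.1 CPM, with neuroblasts at 177 ± 35.4 CPM next and D2 MSNs lowest at 99.5 ± 6.30 CPM. DNAJC5, the cysteine string protein of synaptic vesicles, was sparse everywhere, from 1.90 ± 0.922 CPM in oligodendrocytes to 6.54 ± 2.89 CPM in microglia.

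HSPA1A, the classical inducible HSP70, was close to 0 in MSNs. It stood at 0.292 ± 0.120 CPM in D1 MSNs and 20.8 ± 15.4 CPM in DTHD1-led glia, the latter from 57 UMIs. In DTHD1-led glia it was 37.5, 0 and 17.2 CPM in OVT73 replicates 1 to 3 and 40.3, 5.85, 15.6 and 29.3 CPM in control replicates 1 to 4. DNAJB1, its inducible HSP40 partner, was highest in the same class at 30.9 ± 30.3 CPM, and lowest in PV/Th interneurons at 3.68 ± 1.39 CPM. In D1 MSNs DNAJB1 stood at 5.04 ± 2.25 CPM and in OPCs at 4.13 ± 2.03 CPM, with ranges that overlapped. Over the libraries DNAJB1 in DTHD1-led glia ran from 0 CPM in OVT73 replicate 2 to 86.7 CPM in OVT73 replicate 1. For both genes the spread between libraries covered the difference from other glia. HSPA6, a strictly inducible HSP70, had 28 UMIs in all nuclei kept.

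The HSP110 genes, which encode the exchange factors, differed in where they were high. HSPH1 was highest in OPCs (126 ± 36.5 CPM), eccentric MSNs (122 ± 33.2 CPM), D1 MSNs (114 ± 24.3 CPM) and D2 MSNs (113 ± 22.7 CPM). It was lowest in astrocytes (43.3 ± 24.2 CPM) and oligodendrocytes (43.5 ± 14.5 CPM). HSPA4L was also low in oligodendrocytes, at 40.6 ± 12.9 CPM, and in microglia, at 43.4 ± 11.9 CPM, whereas the other 8 classes ran from 101 CPM in both D1 (± 7.25) and D2 MSNs (± 8.44) to 139 ± 43.2 CPM in DTHD1-led glia. HSPA4, the general family member, went the other way, with its highest level in microglia (105 ± 16.1 CPM) and its lowest in OPCs (46.8 ± 11.2 CPM). HSPA2, an HSP70 best known from the testis, was low throughout, with 5.50 ± 4.35 CPM in neuroblasts as its highest level.

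HSP90AB1, the constitutive cytosolic HSP90, was highest among the 10 classes in PV/Th interneurons at 231 ± 88.0 CPM. SST/NPY interneurons, a smaller class, had a pooled level of 236 CPM. Neuroblasts (185 ± 64.3 CPM), microglia (167 ± 31.4 CPM) and DTHD1-led glia (129 ± 57.9 CPM) followed, with ranges that overlapped it. D1 and D2 MSNs stood at 93.2 ± 20.3 and 89.0 ± 20.7 CPM and OPCs lowest at 72.7 ± 19.7 CPM. The PV/Th range of 148 to 402 CPM lay above the D1 range of 67.4 to 120 CPM.

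Among the small heat shock proteins by symbol, HSPB1 and HSPB8 stood many times higher in astrocytes than in D1 MSNs. HSPB2 and HSPB11 were also highest in astrocytes, HSPB2 at 3.66 ± 5.17 CPM on 9 UMIs. HSPB1 (HSP27) stood at 35.1 ± 16.0 CPM in astrocytes and 33.4 ± 23.6 CPM in DTHD1-led glia, against 0.856 ± 0.355 CPM in D1 MSNs and 5.15 ± 2.23 CPM in oligodendrocytes. HSPB8, which hands misfolded clients to autophagy together with BAG3, was 46.6 ± 29.9 CPM in astrocytes, 30.6 ± 10.8 CPM in OPCs and 27.2 ± 8.29 CPM in oligodendrocytes. It was 1.65 ± 0.551 CPM in D1 MSNs and 1.32 ± 2.85 CPM in microglia, with PV/Th interneurons at 6.67 ± 4.55 CPM and DTHD1-led glia at 13.9 CPM (0 to 34.5) in between. BAG3, no member of the families, had 278 UMIs in astrocytes and 21 UMIs in D1 MSNs, or pooled levels of 60.5 and 0.303 CPM.

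The astrocyte values of HSPB8 were uneven. They were 40.9, 19.8 and 92.6 CPM in OVT73 replicates 1 to 3 and 33.4, 7.39, 69.0 and 63.0 CPM in control replicates 1 to 4. OVT73 replicate 2 and control replicate 2 were the lowest of their groups. HSPB7, known from heart muscle, had 95 of its 114 UMIs in oligodendrocytes, at 3.04 ± 1.31 CPM, and none in OPC or astrocyte nuclei. HSPB3, a small heat shock protein of muscle, had 65 of its 141 UMIs in D1 MSNs, 42 in D2 MSNs and 11 in eccentric MSNs. By level it was highest in eccentric MSNs at 1.53 ± 1.52 CPM, with D1 MSNs next at 1.07 ± 0.712 CPM. HSPB11 was spread over all classes, from 42.8 ± 3.25 CPM in OPCs through 79.1 ± 16.2 CPM in D1 MSNs to 92.9 ± 21.3 CPM in astrocytes.

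Among the mitochondrial members, HSPA9 (mortalin), the HSP70 of the matrix that also pulls proteins through the inner membrane, was highest in oligodendrocytes at 65.7 ± 8.17 CPM. Microglia were next at 40.7 ± 12.5 CPM, and the neuronal classes lay between 28.9 ± 11.3 CPM (eccentric MSNs) and 31.8 ± 5.30 CPM (PV/Th interneurons). The oligodendrocyte range of 54.8 to 76.7 CPM overlapped those of microglia (26.0 to 58.5 CPM) and astrocytes (14.8 to 63.0 CPM) and lay above all neuronal ranges.

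Several ER members were higher in glia than in MSNs, but not all. DNAJC16 was highest in eccentric MSNs at 58.8 ± 7.25 CPM and lowest in OPCs at 22.8 CPM. DNAJC25 was highest in D1 MSNs at 18.5 ± 2.02 CPM, with microglia next at 17.2 ± 4.54 CPM. HSPA5 (BiP), the HSP70 of the ER lumen, was 95.6 ± 46.4 CPM in DTHD1-led glia and 66.0 ± 33.1 CPM in astrocytes, against 20.3 ± 6.72 CPM in D1 MSNs and 15.9 ± 6.47 CPM in eccentric MSNs. DNAJC3 (P58IPK), which serves BiP and inhibits the kinases of the stress response, was 112 ± 9.43 CPM in microglia, with every library at 101 CPM or more and above every library of the other 9 classes. It was 80.8 ± 8.86 CPM in oligodendrocytes and 33.6 ± 4.00 CPM in D1 MSNs. DNAJB9 and DNAJC10, both tied to the removal of misfolded ER proteins, were highest in DTHD1-led glia at 18.1 ± 5.10 and 163 ± 16.2 CPM, and DNAJC10 was lowest in oligodendrocytes at 67.8 ± 9.53 CPM. DNAJB14, in the ER membrane, varied little, from 56.1 ± 23.7 CPM in neuroblasts to 99.8 ± 20.7 CPM in DTHD1-led glia. HSP90B1, the ER HSP90 outside the rule, was 213 ± 43.6 CPM in microglia and 65.9 ± 9.33 CPM in D1 MSNs. HSPA13, an HSP70 relative of microsomes, ranged from 13.6 ± 3.43 CPM in D2 MSNs to 38.4 ± 15.8 CPM in microglia.

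Of the remaining cytosolic and nuclear J-domain members, DNAJB2 was the clearest. DNAJB2, which passes clients to the proteasome and is known for neuronal expression, was 39.0 ± 7.60 CPM in oligodendrocytes, from 26.1 to 47.9 CPM, and lower in astrocytes, the next class, with libraries from 6.68 to 20.02 CPM. D1 and D2 MSNs stood at 3.21 ± 1.15 and 3.60 ± 1.58 CPM. DNAJC8, which belongs to the spliceosome, was 83.7 ± 28.9 CPM in microglia and 50.5 ± 5.12 CPM in oligodendrocytes. HSPA14, the HSP70 of the ribosome-associated complex, was also highest in microglia, at 83.9 ± 22.6 CPM, as was DNAJA2, at 23.9 ± 8.45 CPM. Among the 10 classes DNAJB4 was highest in DTHD1-led glia (39.0 ± 21.0 CPM) and astrocytes (37.9 ± 11.2 CPM), and DNAJC7, a partner of both HSP70 and HSP90, in oligodendrocytes (88.0 ± 13.5 CPM).

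**Figure D2:**
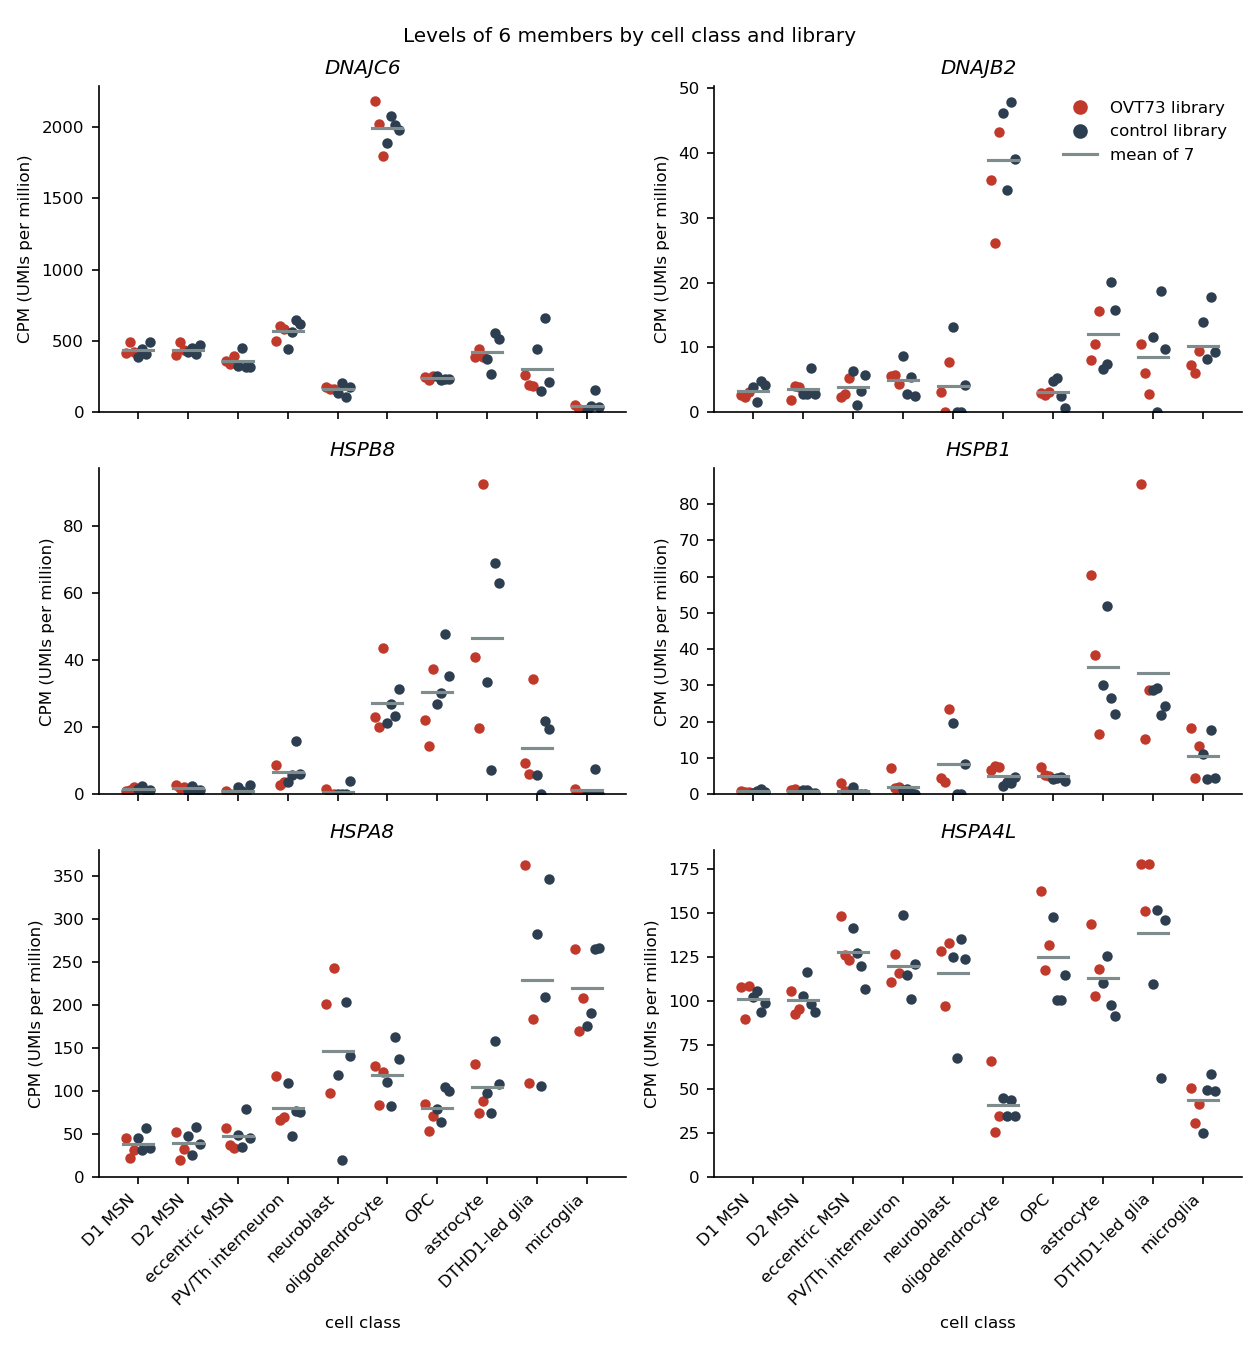
CPM (vertical axes, which start at 0) of 6 members in 10 cell classes, with a point for each of the 7 libraries and a bar for their mean. OVT73 libraries are red and control libraries dark blue. DNAJC6 in oligodendrocytes lies between 1794 and 2180 CPM in all 7 libraries, above every library of the other classes.

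Over the 38 members with at least 100 UMIs in their highest class of the 10, the highest class was microglia for 12, DTHD1-led glia for 8, oligodendrocytes and astrocytes for 5 each, D1 MSNs for 4, OPCs for 2, and eccentric MSNs and PV/Th interneurons for 1 each. D2 MSNs and neuroblasts were highest for none. The same tally was not taken over all genes, so it is not read as a trait of the members. Microglia and DTHD1-led glia held 4320286 and 2401450 UMIs, against 69412580 in D1 MSNs. Some first places were near ties, as for HSPA8 (228 CPM in DTHD1-led glia, 220 in microglia) and HSPH1 (126 in OPCs, 122 in eccentric MSNs). DNAJB2, DNAJC3 and DNAJC6 were the 3 members whose lowest library in the highest class exceeded every library of the other 9 classes. Endothelial nuclei were too few for per-library levels. Pooled over 52 nuclei they held 35 HSPA8 UMIs, or 452 CPM (95% exact Poisson interval 315 to 628 CPM), and 31 HSP90AB1 UMIs, or 400 CPM (272 to 568 CPM). They also held 25 DNAJB4 UMIs, or 323 CPM (209 to 476 CPM), and 10 HSPB1 UMIs, or 129 CPM (61.9 to 237 CPM). These intervals cover counting error only.

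Neuronal transcripts were seen in glia of every library, at levels that differed between libraries, which bears on how low a neuronal level can be read in glia. SST, a peptide gene of interneurons, was at 74.4 to 192 CPM in oligodendrocytes and 86.5 to 217 CPM in microglia. TAC1, a peptide gene of D1 MSNs, was at 52.4 to 100 CPM and 73.6 to 150 CPM in the same classes. The part of such free RNA in the glial values above was not tested.

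The comparison of OVT73 with control asked whether chaperone transcripts change in any cell class at this stage. No member passed the threshold in any of the 10 classes or in all nuclei (edgeR's quasi-likelihood test with Benjamini-Hochberg adjustment over all genes tested in the class, threshold 0.05). DESeq2 on the same sums also called 0 members in each class. Across all genes tested, edgeR called 1 gene in eccentric MSNs (0.0136% of 7327 genes), 1 in OPCs (0.0111% of 9032) and 0 (0%) in every other class and in all nuclei. At an unadjusted p under 0.05 edgeR listed 0 of 47 members tested in D1 MSNs (3.94% of all genes), 1 of 44 in D2 MSNs (4.95%), 2 of 35 in eccentric MSNs (7.68%), 0 of 37 in PV/Th interneurons (2%) and 0 of 18 in neuroblasts (4.82%). It listed 3 of 47 in oligodendrocytes (5.28% of all genes), 2 of 38 in OPCs (6.64%), 1 of 34 in astrocytes (4.18%), 1 of 29 in DTHD1-led glia (3.96%), 3 of 30 in microglia (4.47%) and 2 of 56 in all nuclei (5.44%). A member was tested only where its counts passed the filter on low values.

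**Figure D3:**
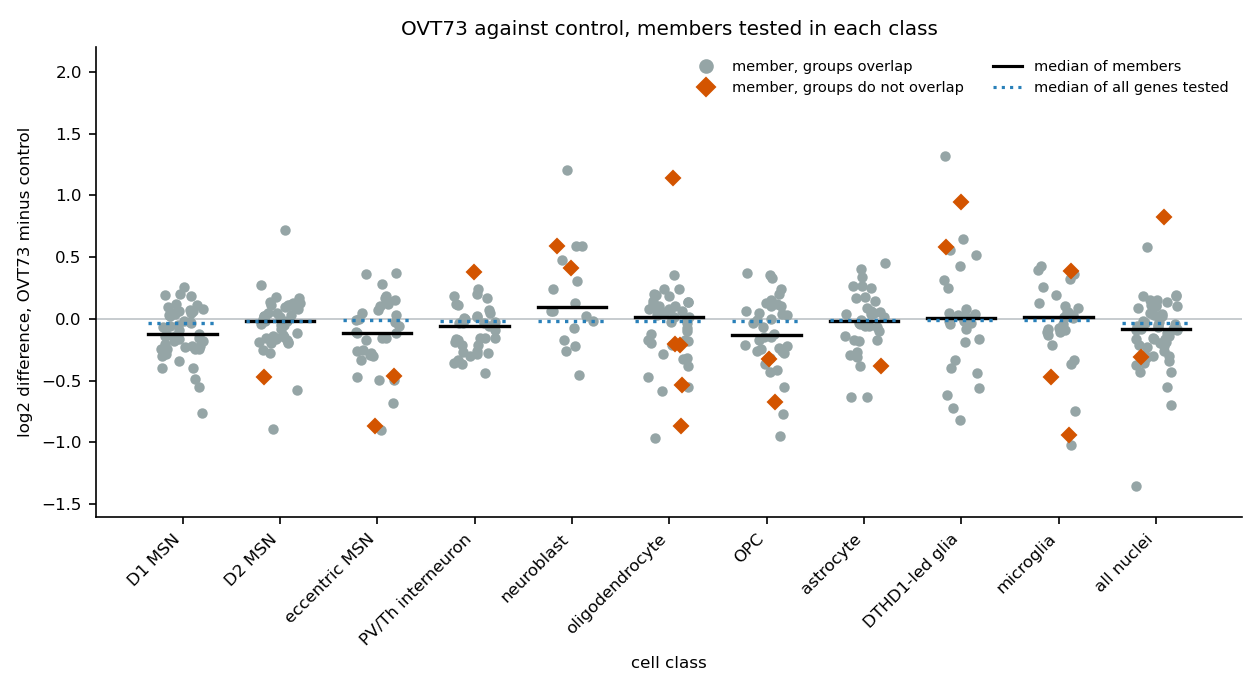
Difference of OVT73 minus control (log2, edgeR) of each member tested in 10 cell classes and in all nuclei, with a grey point for a member whose groups overlap and an orange diamond for a member whose 3 OVT73 and 4 control libraries do not overlap. Solid bars are the members' median and dotted lines the median of all genes tested. The members spread around 0 in each class, with medians of -0.13 in OPCs and -0.12 in D1 MSNs.

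In D1 MSNs 31 of 47 members had a negative difference and 16 a positive one, with a median of -0.12 on the log2 scale against -0.03 for all genes tested. The members' positive share was 34.0% and that of all genes 44.1%. The members' median was -0.03 without OVT73 replicate 2 and also without the 1-sheep libraries, equal to that of all genes at this rounding. It was -0.08 without control replicate 2 and -0.07 without control replicate 4, but further from 0, at -0.17, without OVT73 replicate 3. No member's libraries were separated between the groups, against 5.25% of all genes. The picked members ran from -0.77 (DNAJC5, SE 0.43) to 0.19 (HSPA4, SE 0.14), with 8 of 22 above 0 and 14 below. DNAJC5 stood at 1.64, 1.12 and 2.92 normalized CPM in OVT73 replicates 1 to 3. In control replicates 1 to 4 it stood at 3.03, 1.72, 4.76 and 2.91, so that the groups overlapped. A lower positive share was also seen in eccentric MSNs (37.1%, against 48.3% of all genes), PV/Th interneurons (35.1%, 47.1%) and OPCs (36.8%, 47.7%). Neuroblasts had a higher one (66.7%, 48.1%). In D2 MSNs, oligodendrocytes, astrocytes, DTHD1-led glia and microglia the members' share was 47.1% to 53.3%, against 46.6% to 48.8%.

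In D2 MSNs 1 of 44 members was separated between the groups, against 6.36% of all genes. It was HSPA13, at 10.7, 12.9 and 9.69 normalized CPM in OVT73 and 18.7, 13.4, 15.0 and 14.5 in control libraries. Each OVT73 library was below each control library, the closest pair being OVT73 replicate 2 and control replicate 2. The difference was -0.47 ± 0.20 (log2 ± SE; edgeR adjusted p = 0.862), from 15.4 ± 2.31 to 11.1 ± 1.61 normalized CPM. The picked members ran from -0.89 for DNAJC5 to 0.72 for HSPB8, neither separated, with 10 of 22 above 0.

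HSPA13 was also below the controls in other classes. In microglia it stood at 25.7, 23.2 and 29.1 normalized CPM in OVT73 replicates 1 to 3 and at 51.4, 32.5, 52.5 and 65.8 in control replicates 1 to 4. The groups did not overlap, and the difference was -0.94 ± 0.30 (edgeR adjusted p = 0.944), on 14 to 31 UMIs per library. In eccentric MSNs it was 8.57, 7.96 and 14.7 in OVT73 and 31.7, 21.1, 12.9 and 13.1 in control libraries, with overlap and a difference of -0.90 ± 0.39 (adjusted p = 0.609). In all nuclei the 3 OVT73 libraries (15.6 to 17.1 normalized CPM) lay under the 4 control libraries (18.1 to 23.7), a difference of -0.31 ± 0.14 (adjusted p = 0.825). Its difference was negative in all 9 of the classes in which it was tested, with oligodendrocytes at -0.12 ± 0.15 the smallest. The classes come from the same libraries and are not independent, and in none did the difference pass the test.

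In microglia 3 of 30 members were separated between the groups, against 5.48% of all genes. Besides HSPA13 they were HSP90AB1 and DNAJC8. HSP90AB1 was 209, 184 and 212 normalized CPM in OVT73 and 151, 119, 171 and 178 in control libraries, a difference of 0.39 ± 0.16 (edgeR adjusted p = 0.997). DNAJC8 was 72.0, 64.6 and 76.3 in OVT73 and 151, 82.2, 81.4 and 82.9 in control libraries, a difference of -0.47 ± 0.24 that rested in large part on control replicate 1. HSPA5 had a negative difference of -0.74 ± 0.29 (adjusted p = 0.997), with values of 33.9 to 43.0 against 36.8 to 87.7 that overlapped. The picked members ran from -1.02 (DNAJC6) to 0.43 (HSPH1), with 6 of 15 above 0, and the DNAJC6 value moved with control replicate 3, described above.

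Oligodendrocytes held the member with the smallest p of all classes, HSPB1. Its normalized CPM were 6.90, 8.55 and 7.52 in OVT73 replicates 1 to 3 and 2.42, 3.50, 3.07 and 4.67 in control replicates 1 to 4. Every OVT73 library lay above every control library, with group means of 7.66 ± 0.834 and 3.41 ± 0.948. The difference was 1.14 ± 0.29 on the log2 scale and did not pass the test (edgeR adjusted p = 0.823, rank 28 among 10514 genes). The counts were small, with 66, 30 and 25 UMIs in the OVT73 and 7, 15, 13 and 17 UMIs in the control libraries.

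The 4 clusters that made up the oligodendrocytes were then read one by one, a description chosen after seeing the data. The mean level of HSPB1 over libraries was 8.98 against 4.53 CPM (OVT73 against control) in the largest cluster, 8.22 against 4.59 in the next, and 5.65 against 2.198 and 4.34 against 1.91 in the smaller ones. The groups overlapped in 3 of the 4 clusters. The OVT73 libraries ran from 4.65 to 12.7 CPM and the control libraries from 3.31 to 6.81 CPM in the largest, from 5.05 to 12.8 and 2.63 to 6.65 in the next, and from 0 to 6.89 and 0 to 4.10 in the smallest. In the third cluster they ran from 3.24 to 6.95 and from 1.70 to 2.66 CPM, with no overlap. HSPB1 is much higher in astrocytes, and the 18 astrocyte markers measured summed to 1063 to 1167 CPM in OVT73 and 827 to 1211 CPM in control oligodendrocytes, ranges that overlap. None of these markers was at 0. The part of free or mixed RNA of other classes in the HSPB1 difference was not tested. In astrocytes themselves HSPB1 was 63.9, 41.6 and 17.6 normalized CPM in OVT73 and 31.2, 55.9, 27.5 and 23.0 in control libraries, with a difference of 0.46 ± 0.44. Without OVT73 replicate 1 that difference was -0.10.

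In all, 5 of 47 members were separated between the groups in oligodendrocytes, against 6.5% of all genes. The other 4 were lower in OVT73. HSPB7 was 2.51, 1.43 and 2.11 normalized CPM in OVT73 and 2.77, 5.13, 4.25 and 3.02 in control libraries (difference -0.87 ± 0.38, edgeR adjusted p = 0.879), on 5 to 24 UMIs per library. DNAJC4 (-0.53 ± 0.30), DNAJB11 (-0.21 ± 0.15) and DNAJC18 (-0.20 ± 0.13) were separated by smaller amounts. DNAJC2, the J protein of the ribosome-associated complex, had a difference of -0.55 ± 0.20 with overlap, from 105 ± 19.9 to 72.0 ± 17.3 normalized CPM. DNAJC6 did not differ beyond its spread, at 2213, 2183 and 1799 in OVT73 and 1880, 2130, 1886 and 1952 in control libraries (difference 0.07 ± 0.11). The members split evenly, with 24 above and 23 below 0 and a median of 0.01, which was -0.06 without control replicate 2 and below 0 without any 1 OVT73 library. Without the 1-sheep libraries the members' median was -0.13, against -0.0032 for all genes tested. Over the picked members the differences ran from -0.96 (HSPA1A, SE 0.82) to 1.14 (HSPB1), with 13 of 22 above 0.

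**Figure D4:**
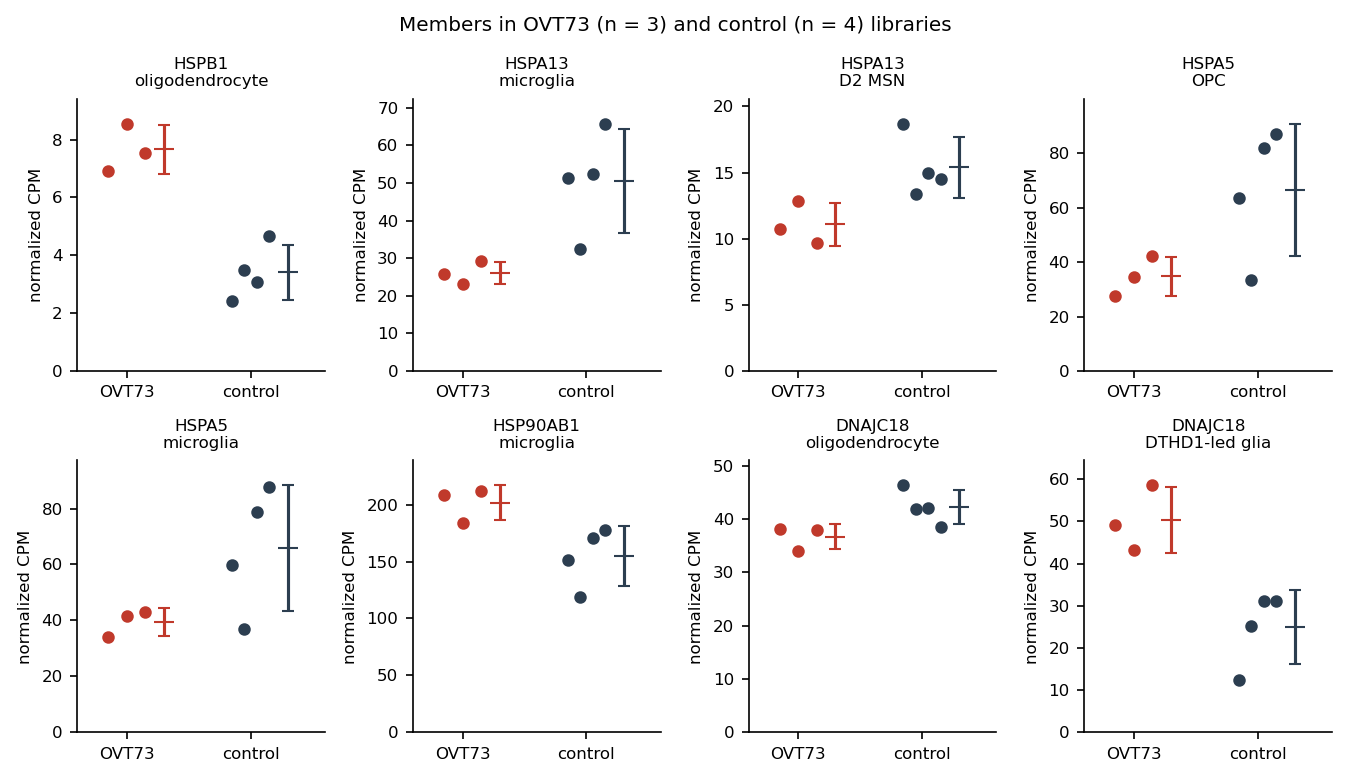
Normalized CPM by library of 8 pairs of a member and a cell class, with OVT73 libraries (red, n = 3) on the left and control libraries (dark blue, n = 4) on the right, and the mean ± SD beside the points. Axes start at 0 and differ between panels. HSPB1 in oligodendrocytes lies between 6.90 and 8.55 in OVT73 and between 2.42 and 4.67 in control libraries, and HSPA5 in OPCs overlaps through control replicate 2.

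In OPCs the ER members had the largest differences. HSPA5 was 27.7, 34.5 and 42.2 normalized CPM in OVT73 replicates 1 to 3 and 63.7, 33.4, 82.0 and 87.2 in control replicates 1 to 4. Control replicate 2 lay among the OVT73 libraries and the other 3 controls above them. The difference was -0.95 ± 0.29 (edgeR adjusted p = 0.68), from 66.6 ± 24.3 to 34.8 ± 7.24 normalized CPM. With no filter on low counts, which changes the set of genes that share the estimate of the spread, it was -0.89 with an adjusted p of 0.00577. DNAJB12, which sits in the ER membrane, was separated between the groups at 13.7, 19.7 and 18.5 against 32.9, 21.0, 32.3 and 23.6 (difference -0.68 ± 0.24), as was DNAJC19, of the mitochondrial import motor (-0.32 ± 0.20). Separated members were 2 of 38, against 7.48% of all genes, and 24 of 38 members lay below 0 with a median of -0.13. That median was -0.06 without control replicate 3, -0.07 without control replicate 1, -0.09 without OVT73 replicate 2 and -0.04 with no filter on low counts. It lay further from 0 without OVT73 replicate 1 (-0.17), without control replicate 2 (-0.15) and without the 1-sheep libraries (-0.15). Oligodendrocyte markers summed to 1861 to 2055 CPM in the OVT73 and 2327 to 2679 CPM in the control OPC nuclei, with all 21 measured markers above 0. The part of this in the HSPA5 difference was not tested.

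HSPA5 had a negative difference in most classes. It was -0.40 ± 0.24 in D1 MSNs, -0.25 ± 0.27 in D2 MSNs, -0.50 ± 0.37 in eccentric MSNs, -0.30 ± 0.31 in PV/Th interneurons, -0.47 ± 0.40 in oligodendrocytes, -0.64 ± 0.32 in astrocytes and -0.72 ± 0.36 in DTHD1-led glia. Only in neuroblasts was it positive, at 0.59 ± 0.42. Control replicate 2 was lower than control replicates 1, 3 and 4 in every class but neuroblasts and DTHD1-led glia, and in each class the groups overlapped. In astrocytes it was 53.6, 61.7 and 52.8 normalized CPM in OVT73 and 55.4, 31.9, 131 and 98.8 in control libraries.

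The 12 ER members leaned below 0 in some classes and not in others. In D1 MSNs 1 of 12 was above 0, with a median of -0.10, against 44.1% of all genes. It was 3 of 12 in OPCs (median -0.21, 47.7% of all genes), 3 of 12 in PV/Th interneurons (-0.10, 47.1%), 3 of 11 in eccentric MSNs (-0.16, 48.3%) and 4 of 12 in D2 MSNs (-0.06, 46.6%). In oligodendrocytes 5 of 12 were above 0 (-0.08, 46.8%) and in astrocytes 5 of 10 (-0.03, 48.8%). DTHD1-led glia had 4 of 8 above 0 (48.4% of all genes). In microglia 6 of 10 were above 0 (median 0.11, 47.9%), and in neuroblasts 3 of 5 (0.24, 48.1%). None was called in any class. The medians of all genes tested lay between -0.03 and -0.01 in these classes.

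In eccentric MSNs 2 of 35 members were separated, against 7.96% of all genes. DNAJB11, a J protein of the ER lumen, was 9.52, 8.96 and 4.61 normalized CPM in OVT73 and 16.9, 12.9, 17.7 and 11.7 in control libraries (difference -0.87 ± 0.39, edgeR adjusted p = 0.623). DNAJB4 followed at 21.9, 16.9 and 15.7 against 29.6, 25.8, 24.2 and 23.3 (-0.46 ± 0.27). In PV/Th interneurons 1 of 37 members was separated, against 3.55% of all genes. It was DNAJC9, a chaperone of histones, at 13.2, 11.6 and 12.6 against 9.28, 8.96, 10.6 and 9.22 (0.38 ± 0.27).

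In neuroblasts 2 of 18 members were separated, against 5.99% of all genes, and both were higher in OVT73. HSPB11, a subunit of the intraflagellar transport complex, was 86.0, 105 and 72.8 normalized CPM in OVT73 and 72.5, 57.7, 43.4 and 54.6 in control libraries (difference 0.59 ± 0.32, edgeR adjusted p = 0.977). DNAJC8 was 52.3, 56.1 and 47.1 against 43.5, 46.2, 28.9 and 36.4 (0.41 ± 0.38). The lowest OVT73 library exceeded the highest control library by very little in each. Over all libraries HSPB11 had 126 UMIs in neuroblasts and DNAJC8 had 77. Control replicate 3, the lowest for both genes, held 73994 UMIs of this class in all, so that its values stand for very few UMIs.

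In astrocytes 1 of 34 members was separated, against 4.99% of all genes. It was DNAJC18, a J protein of the ER membrane, at 34.1, 33.0 and 35.2 normalized CPM in OVT73 and 48.5, 55.9, 43.5 and 36.2 in control libraries (difference -0.38 ± 0.27, edgeR adjusted p = 0.999). HSPA14 had a difference of -0.63 ± 0.28 with overlap. HSPB8 did not differ beyond its spread (0.08 ± 0.57). The picked members ran from -0.64 (HSPA5) to 0.46 (HSPB1), with 9 of 17 above 0.

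DTHD1-led glia had 2 of 29 members separated, against 4.76% of all genes, and both were higher in OVT73. DNAJC18 was 49.2, 43.2 and 58.6 normalized CPM in OVT73 and 12.4, 25.3, 31.1 and 31.2 in control libraries, a difference of 0.95 ± 0.37 (edgeR adjusted p = 1). HSPA4L was 192, 166 and 191 against 118, 164, 62.2 and 156 (0.59 ± 0.30). Over all libraries DNAJC18 had 92 UMIs in this class and HSPA4L 357. The class held 170990 to 853054 UMIs in a library, so that the control values of DNAJC18 stand for very few UMIs. DNAJC18 had differences of opposite sign in DTHD1-led glia and in oligodendrocytes. The difference between these 2 differences, taken from the log2 values of each library, was 1.29. It is read as a description, since the gene and the classes were picked for their opposite separation. Its exact permutation p was under 0.05 before adjustment and over 0.05 after it. In DTHD1-led glia of control replicate 3 oligodendrocyte markers summed to 10339 CPM, against 1047 to 2962 CPM in the other 6 libraries.

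In all nuclei of a library 2 of 56 members were separated, against 6.39% of all genes. They were HSPA13, given above, and HSPB1, at 6.65, 3.47 and 3.64 normalized CPM in OVT73 and 2.27, 3.07, 3.01 and 2.10 in control libraries (difference 0.82 ± 0.29, edgeR adjusted p = 0.825). HSPB7 was lower by -1.35 ± 0.50 with overlap. Members below 0 numbered 38 of 56, with a median of -0.08, which was 0.0025 without OVT73 replicate 2 and -0.05 without control replicate 1. Without OVT73 replicate 1 that median lay further from 0, at -0.12. These sums mix the cell classes, whose shares differed between the groups. Oligodendrocytes were 39.2% to 45.2% of OVT73 and 47.2% to 54.7% of control nuclei, astrocytes 3.42% to 4.93% and 0.947% to 2.84%, and DTHD1-led glia 3.06% to 4.22% and 2.23% to 2.96%. Each of these 3 shares had an exact permutation p of 0.0286, or 0.0952 adjusted over 10 classes. HSPB1 was highest in the classes with larger shares in OVT73 and HSPB7 in the class with the smaller one, and in a sum over nuclei a change in class shares and a change per nucleus cannot be told apart.

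The other lists of members, by role, held no called member in any class either. Of all genes tested, 44.1% (D1 MSNs) to 48.8% (astrocytes) lay above 0 in the 10 classes. The 7 measured members of the inducible core had median differences from -0.22 in D1 MSNs (3 of 4 tested below 0) to 0.59 in neuroblasts (3 of 3 above 0). The HSP70 and HSP110 family ran from -0.23 in microglia to 0.36 in neuroblasts, with 7 of 10 below 0 in D1 MSNs and 6 of 10 in oligodendrocytes. Small heat shock proteins by symbol ran from -0.17 in all nuclei to 0.59 in neuroblasts. There 1 was tested, HSPB11, a subunit of the intraflagellar transport complex. HSP90AB1 ran from -0.17 in eccentric MSNs to 0.65 in DTHD1-led glia. The mitochondrial list ran from -0.20 in eccentric MSNs to 0.25 in DTHD1-led glia, and the vesicle and endosome list from -0.12 to 0.11. Members known to modify polyglutamine aggregation (12 of 14 measured) ran from -0.12 in D1 MSNs to 0.32 in DTHD1-led glia, with 5 of 8 below 0 in D1 MSNs, 3 of 8 in D2 MSNs and 6 of 11 in oligodendrocytes.

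Genes that work with these families but are no members were read the same way, and edgeR called none of the listed genes in any class. For comparison, 44.1% of all genes tested lay above 0 in D1 MSNs, 46.6% in D2 MSNs, 46.8% in oligodendrocytes and 47.7% in OPCs. In the other classes it was 47.1% to 48.8%. Of 31 measured HSP co-chaperones and regulators, 20 of 28 tested were below 0 in D1 MSNs (median -0.22), 19 of 28 in D2 MSNs (-0.13) and 19 of 28 in oligodendrocytes (-0.12), and in the other 7 classes the medians ran from -0.16 in eccentric MSNs to -0.0038 in DTHD1-led glia. Of 11 measured TRiC chaperonin and prefoldin genes, 9 of 11 were below 0 in D1 MSNs, 10 of 11 in D2 MSNs and 9 of 10 in OPCs, but 4 of 11 in oligodendrocytes, 3 of 10 in microglia and 2 of 7 in DTHD1-led glia. Of 19 genes of the unfolded protein response, 15 of 18 were below 0 in D1 MSNs (median -0.19) and 12 of 15 in OPCs (-0.29). In oligodendrocytes it was 12 of 18 (-0.13). The lowest median of this list over the classes and all nuclei was -0.31, below that of OPCs. The same genes leaned the other way in PV/Th interneurons, with 11 of 17 above 0 (median 0.13), in eccentric MSNs (6 of 11, 0.04) and in DTHD1-led glia (5 of 7, 0.04). Immediate early genes, which mark handling and activity, were below 0 for 3 of 3 tested in D1 MSNs, 5 of 5 in D2 MSNs and 5 of 5 in DTHD1-led glia, and above 0 for 3 of 3 in astrocytes (median 0.21).

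Members of the inducible core also varied between libraries of the same group. HSPA8, which is constitutive but also raised by heat shock factor 1, stands in that list. In D2 MSNs it was 52.3, 18.8 and 32.4 CPM in OVT73 replicates 1 to 3 and 46.9, 25.4, 57.3 and 37.8 CPM in control replicates 1 to 4. In oligodendrocytes it was 129, 82.8 and 122 against 110, 81.9, 163 and 136 CPM, and in neuroblasts 201, 97.3 and 242 against 119, 19.3, 203 and 141 CPM. OVT73 replicate 2 and control replicate 2 were the lowest pair each time. This held for HSPA8 in 7 of the 10 classes, and for HSPH1 and DNAJB1 in 5 each. It held for HSPA1A in 2, for HSPA4L and HSPB1 in 1 each, and for HSPA6 in none. HSP90AB1, which is not in that list, had the same lowest pair in 2.

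The pattern was chosen after its values were seen, and other genes showed it too. Of all genes with at least 100 UMIs, these libraries were the lowest pair for 9.29% in D1 MSNs, 9.77% in D2 MSNs and 10.7% in oligodendrocytes. Among members it was 11 of 44, 13 of 44 and 13 of 44 in these classes, and 4 of 30 in microglia, where the share of all genes was 7.41%. HSPH1 in D1 MSNs was 118, 71.6 and 112 CPM in OVT73 and 144, 96.9, 137 and 116 CPM in control libraries. Summed immediate early genes in D1 MSNs were at 79.7 CPM in OVT73 replicate 2 and 73.8 CPM in control replicate 2 against 75.7 to 99.4 CPM in the other 5. Of these libraries 1 is OVT73 and the other control, so the pattern lies in both groups. Its effect on the differences between the groups was not tested. The members' median in D1 MSNs was -0.12, and it was -0.03 without OVT73 replicate 2 and -0.08 without control replicate 2.

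**Figure D5:**
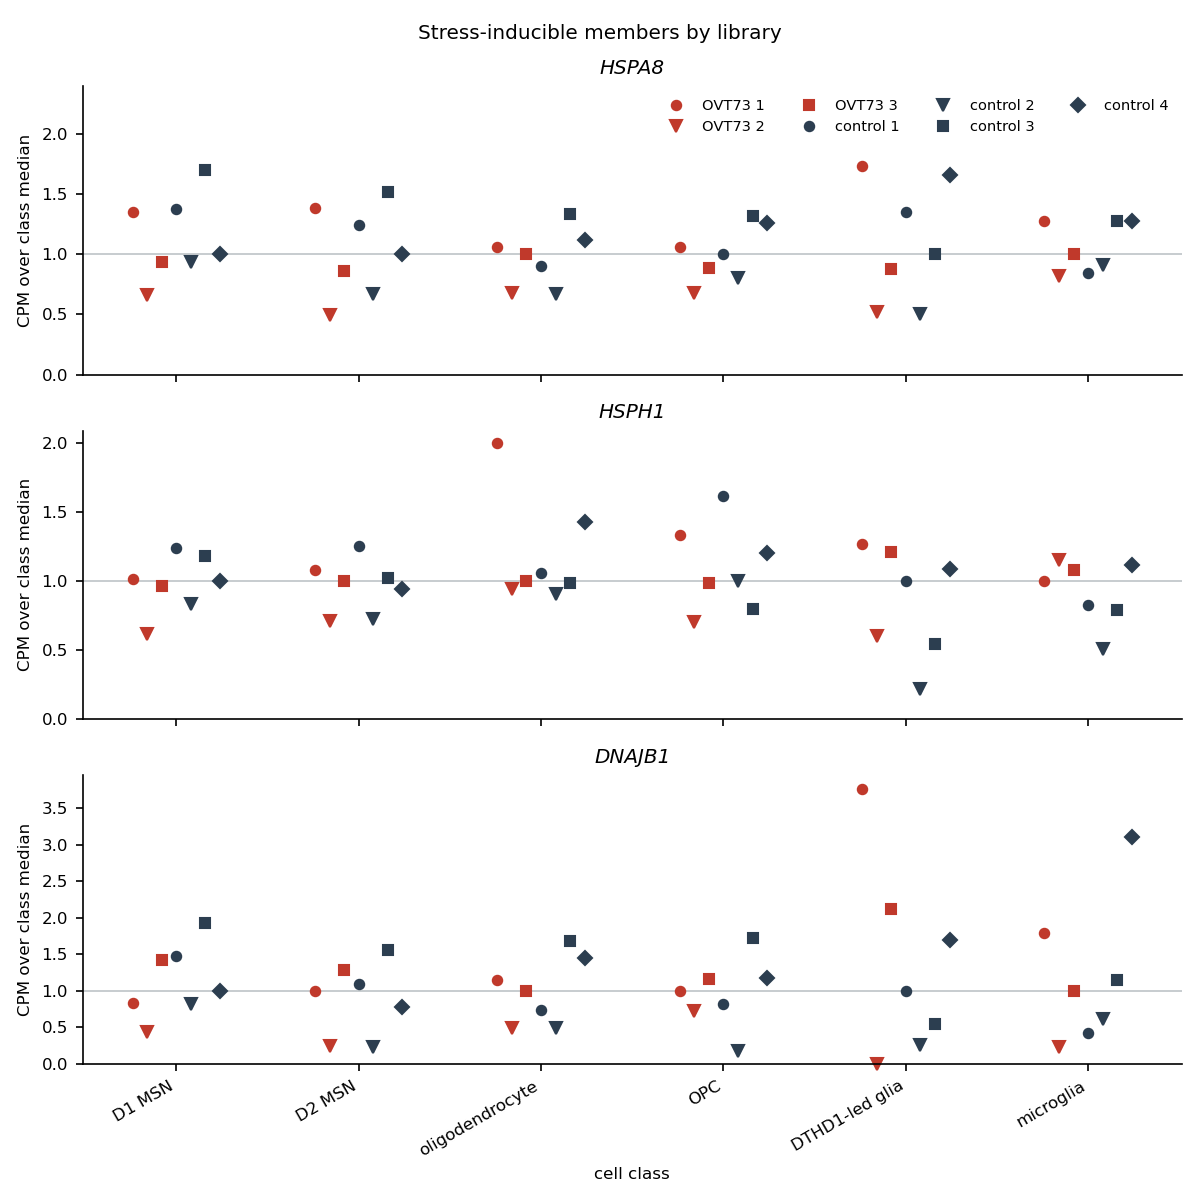
CPM of HSPA8, HSPH1 and DNAJB1 in each library, divided by the median of the 7 libraries in the class, for 6 cell classes. Colours mark the groups (OVT73 red, control dark blue) and shapes the replicate, with triangles for replicate 2 of each group. Both triangles lie lowest for HSPA8 in D2 MSNs, at 18.8 and 25.4 CPM against a median of 37.8 CPM.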

How the data were processed

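Single-nucleus RNA sequencing was carried out by the authors with droplet 3′ libraries of frozen striatum. The deposited matrices hold raw UMI counts per feature and barcode, made by the authors with Cell Ranger 7.0.0 and STAR 2.7.2a on the Oar_rambouillet_v1.0 genome with an Ensembl annotation, before demultiplexing, quality control and normalization. The study does not state whether intronic reads were counted. It reports a larger share of reads on the transcriptome than on exons in each library, which points to intronic reads being counted. The assignment of barcodes to single sheep was not repeated.

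Nuclei with 200 to 7500 genes and at most 5% of UMIs on 35 mitochondrial features were kept, and the 4% with the highest scrublet score in each library (1358 nuclei) were removed, because its automatic threshold marked 1 to 402 barcodes in a library. The 3000 most variable genes, members left out, gave 30 components, corrected between libraries by an implementation of Harmony, and 28 clusters (scanpy 1.11.5, igraph 0.11.9; 20 neighbours, resolution 1, seed 1). A cluster took the name of the class with most markers among its 10 leading genes if at least 3 markers were raised by over 1 (log2), and stayed unnamed where another class reached 0.4 of that strength or over 50% of its nuclei had a doublet score in the removed range. This rule was settled after marker profiles were seen.

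UMIs were summed per library and class, and 3 OVT73 sums were compared with 4 control sums by edgeR 4.0.16 in R 4.3.3 (filterByExpr, TMM, robust quasi-likelihood test, two-sided), with Benjamini-Hochberg adjustment over all genes tested in a class. DESeq2 1.42.0 was an alternative. The test was tried on simulated data, but the outcome is not given here. What size of difference it could find with these libraries is therefore not stated. Normalized CPM are TMM-scaled. Exact permutation tests (two-sided, scipy 1.17.1) cover 35 choices of libraries and cannot give a p under 0.0286.

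The members and lists were chosen with earlier results of these data known. Named for the OVT73 comparison were up to 3 members in each direction per class with non-overlapping groups, and 30 picked members in 5 classes. Named for levels were the picked members and the 8 with the largest ratio of highest to second class over the 13 named classes. These 8 were taken from the members with at least 100 UMIs in the highest class. Other members with an unadjusted p under 0.05, and further members for their levels (HSPA6, HSPB7, DNAJC16 and DNAJC25 among them), were named after their values were seen.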

Additional observations from a re-analysis of the deposited data

Results flagged for a closer look

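In 114 pairs of a named member and a cell class, the 4 control libraries were searched for 1 that stood far from the other 3, which chance gives in about 1 of 20 groups. There were 2 such pairs. DNAJB2 in D2 MSNs was 6.33 normalized CPM in control replicate 3 and 2.75 to 2.87 in the other control libraries. DNAJC8 in microglia was 151 normalized CPM in control replicate 1 and 81.4 to 82.9 in the others, so that much of its lower OVT73 mean came from that library.

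DNAJC18 had OVT73 and control libraries separated in opposite directions in DTHD1-led glia and oligodendrocytes. The OVT73 minus control difference was higher by 1.29 (log2) in DTHD1-led glia. Its exact permutation p was under 0.05 before adjustment and over 0.05 after it. The gene and classes were picked for this pattern, so that p cannot serve as a test. DNAJC18 passed the edgeR test in neither class, and in DTHD1-led glia it had 92 UMIs over all libraries. DNAJC18 in DTHD1-led glia against astrocytes and DNAJC8 in neuroblasts against microglia were also separated in opposite directions. Their exact permutation p was over 0.05 without adjustment.

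Signals outside the members and classes were also present. HSPCA, an older symbol of HSP90AA1 that the rule does not take, had 17986 UMIs in the nuclei kept. In an unnamed cluster of 387 nuclei HSP90AB1 had a pooled level of 890 CPM and HSPA8 of 671 CPM, above their mean in each of the 10 classes. SCG2, SST and HSPCA led that cluster against all nuclei. OPALIN and MOBP were among the genes that led it against other neurons, so that it held transcripts of both interneurons and oligodendrocytes.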

How the results depend on the processing

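No paired analysis was possible because the labels give the libraries no shared replicate numbers. No member was called in any class with any 1 library left out (0 in every fit), and over the other settings tried the only call of a member was HSPA5 in OPCs with no filter on low counts (1 member). Of 30 named pairs of a member and a class followed through 10 to 15 alternatives each, 1 changed sign: HSPB1 in astrocytes was -0.10 without OVT73 replicate 1 and up to 0.78 without OVT73 replicate 3, in place of 0.46.

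Counts of called genes over all genes, 1 in eccentric MSNs, 1 in OPCs and 0 elsewhere by edgeR, moved as follows, and the causes were not tested. DESeq2 called 3 in D1 MSNs, 4 each in D2 MSNs, neuroblasts and oligodendrocytes, 8 in OPCs, 1 in astrocytes and 17 in all nuclei. With no filter on low counts edgeR called 1 each in D2 MSNs and oligodendrocytes, 43 in eccentric MSNs, 3 in PV/Th interneurons, 9 in neuroblasts, 34 in OPCs, 2 in astrocytes, 6 in DTHD1-led glia and 35 in microglia. Without TMM it called 0 in eccentric MSNs and 2 in OPCs. With equal numbers of nuclei it called 3 and 0. Without the 1-sheep libraries it called 8 in eccentric MSNs, 13 in neuroblasts and 1 in DTHD1-led glia. With 1 library left out, counts ran from 0 to 1 in D2 MSNs, oligodendrocytes and microglia, 0 to 3 in eccentric MSNs, 0 to 7 in neuroblasts and 0 to 2 in OPCs.

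The next count was taken over all 13 named classes, the small ones through their libraries of at least 10 nuclei, and not over the 10 compared. Among members with at least 100 UMIs in the highest class, the number whose highest class was at least 1.5 times the second was 5. It was 3 to 5 with 1 library left out (3 without OVT73 replicate 1 or OVT73 replicate 3), 4 with doublets kept and 6 with members among the clustering genes. Without TMM the median of all genes shifted to -0.13 in D1 and D2 MSNs, and the members' median in D1 MSNs to -0.22, so that the distance between them stayed at -0.09. Microglia, neuroblasts and DTHD1-led glia held few UMIs, which limits the members that could be tested there.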

Other observations

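The cluster with both interneuron and oligodendrocyte transcripts also held 1586 CPM of HSPCA, as a pooled level. HSPCA was among the genes that led this cluster against all nuclei. As it is no member, it was not left out before clustering, so its level there is no separate finding. The pooled HSPCA level was 43.8 CPM in D1 MSNs, 46.7 CPM in D2 MSNs, 108 CPM in PV/Th interneurons, 164 CPM in oligodendrocytes and 206 CPM in microglia. D1 and D2 MSNs had the lowest levels of HSPCA among these classes.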
